A study of Rattus norvegicus with 12 samples.

Results

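The 78 genes described here encode proteins of the mitochondrial ribosome, measured in heart muscle of ZSF1 rats. They are all entries of the deposited expression table whose symbol starts with Mrpl or Mrps followed by a digit, with a usable value in every sample and a mean of at least 1 TPM over the 12 samples, out of 17104 genes with usable values. No entry with such a name was lost to either condition. By symbol, 48 belong to the large subunit (Mrpl) and 30 to the small subunit (Mrps). TPM is a length-corrected share of each sample's transcripts. It holds no read counts, and the depth of the libraries is unknown.

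Cardiac muscle RNA was sequenced from 3 groups of 4 samples: lean ZSF1 rats, obese ZSF1 rats, and obese ZSF1 rats that received 24 mM nicotinamide (NAM) in the drinking water between 8 and 20 weeks of age. All 3 groups share the ZSF1 strain. The obese group stands for obesity, metabolic syndrome and hypertension together, as a model of risk for HFpEF. HFpEF is heart failure in which the ejection fraction is preserved but the ventricle relaxes and fills poorly. Blood pressure was not compared here, so obese against lean cannot be read as a contrast of high with normal pressure. The sample labels call the obesity diet-induced, while ZSF1 obese rats are known for inherited leptin receptor defects, and the labels name no allele. The study asked what raising NAD+ with its precursor NAM does in such hearts. The sources used here do not give the age and sex of the lean and untreated obese animals, or say whether all libraries were made together.

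Mitochondria keep their own ribosome, which translates the few messenger RNAs of the mitochondrial genome into core subunits of the respiratory chain and of ATP synthase. Its RNA is made inside the organelle, but all its proteins are encoded in the nucleus, made in the cytosol and imported, so that building it takes both genomes. The small subunit binds and decodes the messenger RNA, and the large subunit joins amino acids and releases the chain through an exit tunnel at the inner membrane. Heart muscle depends heavily on this system, and in humans inherited defects of MRPL3, MRPL44, MRPS14 and MRPS22 have been linked to hypertrophic cardiomyopathy.

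One feature of these libraries touches every value below. The 13 mitochondrially encoded messenger RNAs took up 69.1% ± 1.97 (SD, n = 4) of all TPM in lean hearts, 75.1% ± 0.376 in obese hearts and 71.3% ± 1.69 in NAM-treated hearts. Over the 10526 genes tested, the median log2 change was -0.20 in obese against lean hearts, 0.25 in NAM-treated against obese hearts and 0.05 in NAM-treated against lean hearts. Each comparison is therefore given on the TPM as deposited and after median-of-ratios rescaling, in which 1 factor per sample brings the typical gene to its average over the 12 samples; this brought all 3 medians to within 0.01 of 0. Summed TPM of 10 cardiomyocyte markers moved the same way as the general shift, from 23750 to 27756 in lean samples, 16536 to 18750 in obese samples and 20484 to 23631 with NAM, and all 10 were detected. Of other cells, 7 macrophage markers summed to 60.6 to 93.1 TPM in lean samples, 37.7 to 176 in obese samples and 87.6 to 94.8 with NAM. The sum of 3 erythroid markers was 511 to 1062 TPM in lean samples, 1129 to 2854 in obese samples and 349 to 1636 with NAM, so that all obese samples lay above all lean ones. The sum of 4 atrial markers ran from 89.5 to 162 TPM in lean samples, from 115 to 582 in obese samples and from 164 to 1098 with NAM. The high ends came from single samples. Of these markers, Myl7 was at 192 TPM in NAM-treated sample 1 and at 2.13 to 2.89 TPM in the rest of that group. In obese sample 4 it was at 99.3 TPM, with 2.17 to 30.4 TPM in the other obese samples. The part of these differences in the results was not tested, and in bulk RNA fewer cells of a type and less RNA per cell cannot be told apart.

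In the level plot the genes spread over more than 2 orders of magnitude. The median gene had a mean of 17.7 TPM over the 12 samples. Of the 78, 18 had a mean under 10 TPM, 43 lay between 10 and 30 and 17 reached 30 or more. The large and small subunit genes had similar medians of 18.1 and 17.5 TPM. Mrpl33, a small protein of the large subunit, and Mrps36 stood far above the rest with means of 654 and 420 TPM, and together they held 39.6% of the summed mean of all 78 genes. Mrps36 keeps its ribosomal name, but its product is now known as a subunit of the alpha-ketoglutarate dehydrogenase complex of the tricarboxylic acid cycle, and is not a constituent of the ribosome. The next highest were Mrps21 at 78.4 TPM and Mrpl42, which has no bacterial counterpart, at 64.9 TPM.

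**Figure D1:**
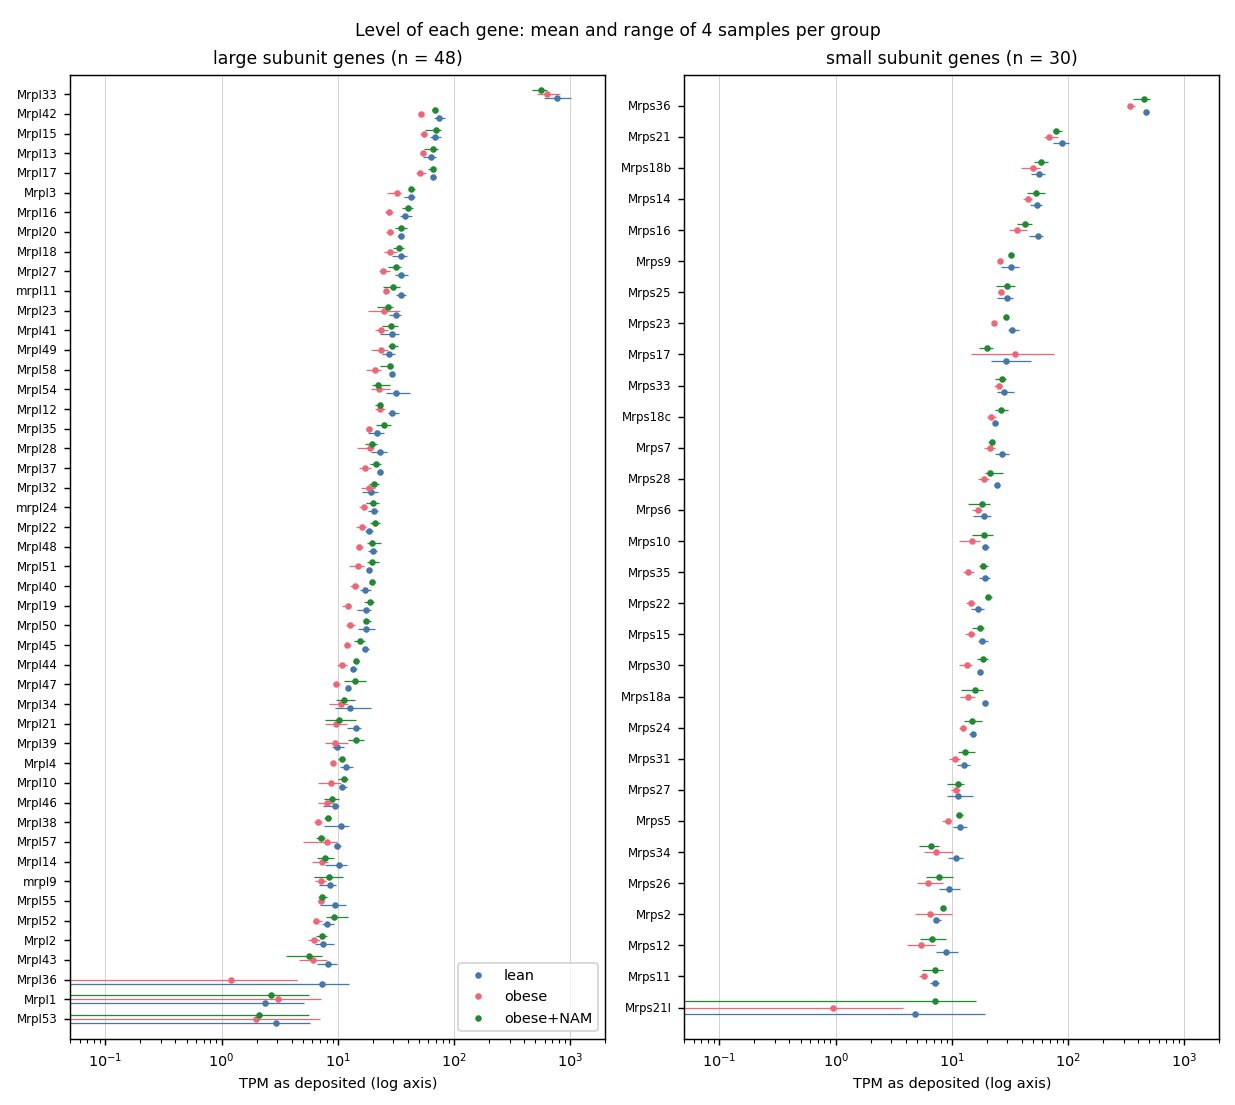
Level of each of the 78 genes in TPM as deposited on a log axis, large subunit left and small subunit right, sorted by mean. Points are group means and lines the range of 4 samples. Lines that reach the left edge include values of 0, as for Mrpl36, Mrpl1, Mrpl53 and Mrps21l. Mrpl33 (654 TPM) and Mrps36 (420 TPM) lie well above all others.

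At the low end, 74 genes reached 1 TPM in all 12 samples and 4 did not. Mrpl36, a small protein of the large subunit, was listed at 8.53, 8.05, 12.4 and 0 TPM in the lean samples, at 0, 0.381, 4.42 and 0 TPM in the obese samples, and at 0 TPM in all 4 NAM-treated samples. Lean samples held the 3 highest values, but the lean and obese groups overlapped, and an exact 0 in a table without counts can be a failed estimate. Mrpl1, Mrpl53 and Mrps21l also went between 0 and several TPM within single groups. Mrps21l, a near copy of Mrps21, was listed at 19.4 TPM in 1 lean sample, 3.78 TPM in 1 obese sample and 12.2 and 16.2 TPM in 2 NAM-treated samples, and at 0 in the other 8. How reads were divided between these near copies is not known, so both values are uncertain. Mrps17, which binds ribosomal RNA in the small subunit body, was erratic at a higher level: 21.7, 48.2, 23.8 and 22.7 TPM in lean, 17.4, 14.7, 31.8 and 76.2 TPM in obese, and 20.2, 19.8, 17.1 and 22.5 TPM in NAM-treated samples. None of these genes was called in any comparison; Mrps17 was singled out after its values had been seen.

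A part of the mitoribosomal protein transcripts was a smaller share of the RNA in obese than in lean hearts. On the deposited TPM 29 of the 78 (37.2%) were called lower and 0 higher, with a call meaning an adjusted p under 0.05 in limma's test on log2(TPM + 1), where 16.5% of all 10526 genes were called lower and 0.352% higher. Called or not, 77 of the 78 (98.7%) had a lower mean on the log scale, against 82.4% of all genes, and Mrps17 had a higher one. All 4 obese samples lay below all 4 lean samples for 38 of the 78 genes (48.7%), against 23.2% of all genes. The median log2 change was -0.31 for both subunits, against -0.20 for all genes. Both subunits were called at similar rates, 18 of 48 large and 11 of 30 small subunit genes. Calls came to 13 of the 41 genes listed with a bacterial counterpart and 15 of 35 genes not on that list. The list is incomplete, so the 35 are not all without a counterpart. Of the Mrps18 genes only Mrps18c was on it. Mrps18a, which was called, and Mrps18b were counted with the 35, though related to the same bacterial protein. Mrps24 and Mrpl47, which also have bacterial relatives, were counted with the 35 as well. The structural sites named below come from textbook knowledge and were assigned after the values had been seen.

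After rescaling, none of the 78 was called in obese against lean hearts, where 0.751% of all genes were called lower and 0.589% higher. At an unadjusted p under 0.05, 10 genes (12.8%) were lower and 1 (1.28%) was higher, against 8.54% and 8.14% of all genes. By sign alone 56 (71.8%) were lower and 22 (28.2%) higher, against 49.3% and 50.7% of all genes. The median log2 change of the genes was then -0.07, still below that of all genes. It also stayed below with quantile normalization (-0.06, all genes 0.00) and after removal of the mitochondrially encoded genes from the TPM (-0.03, all genes 0.05). Here and below, all genes in that last setting means the 13229 genes that passed the filter applied anew. The calls in obese hearts thus held on the deposited TPM and not on a scale that puts the median gene at 0.

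**Figure D2:**
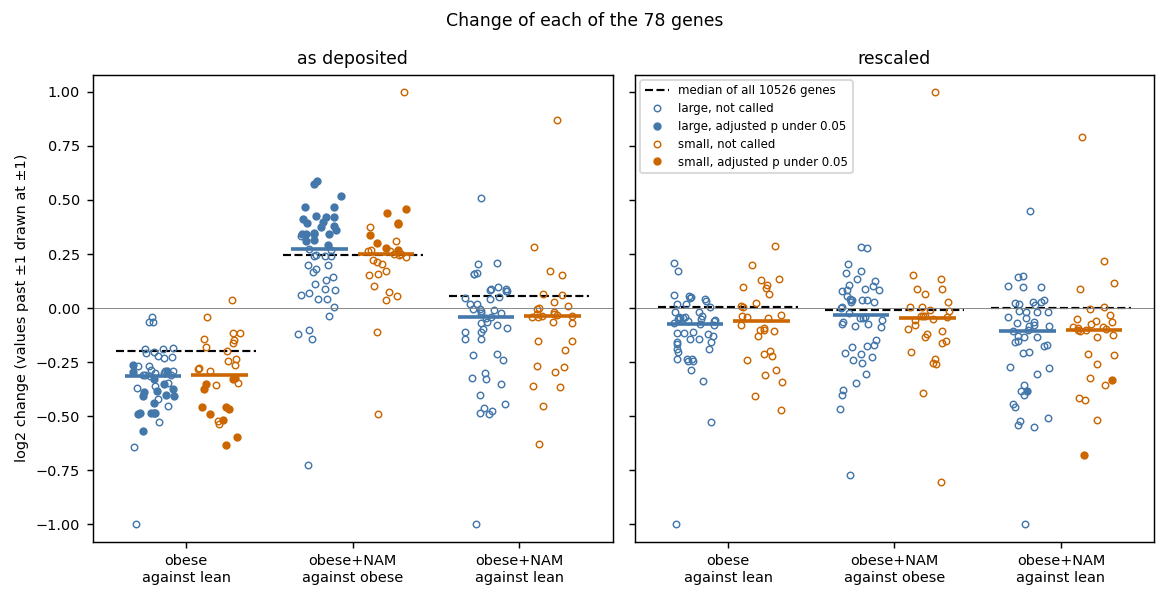
Log2 change of each of the 78 genes in the 3 comparisons, as deposited (left) and rescaled (right). Filled points have an adjusted p under 0.05, coloured bars are subunit medians and dashed lines the median of all 10526 genes. The counts of 29 genes lower in obese and 30 genes higher with NAM on the left become 0 on the right, where 3 genes are called lower in NAM-treated than in lean hearts.

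The clearest single genes came from both subunits. Mrpl42 was at 83.5, 71.2, 74.1 and 67.4 TPM in the lean samples, 53.9, 49.3, 54.5 and 51.7 TPM in the obese samples and 64.5, 70.7, 68.3 and 69.5 TPM in the NAM-treated samples. Every obese value lay below every value of the other groups, and the log2 change from lean to obese was -0.49 ± 0.08 (SE; limma adjusted p = 0.00309). Mrps23, a small subunit protein without a bacterial counterpart, was at 38.0, 31.7, 30.7 and 30.9 TPM in lean, 22.8, 24.2, 22.7 and 22.2 TPM in obese and 30.6, 30.1, 27.4 and 29.2 TPM in NAM-treated samples. It again did not overlap between obese and either other group, with a change of -0.49 ± 0.08 in obese hearts (limma adjusted p = 0.00357).

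**Figure D3:**
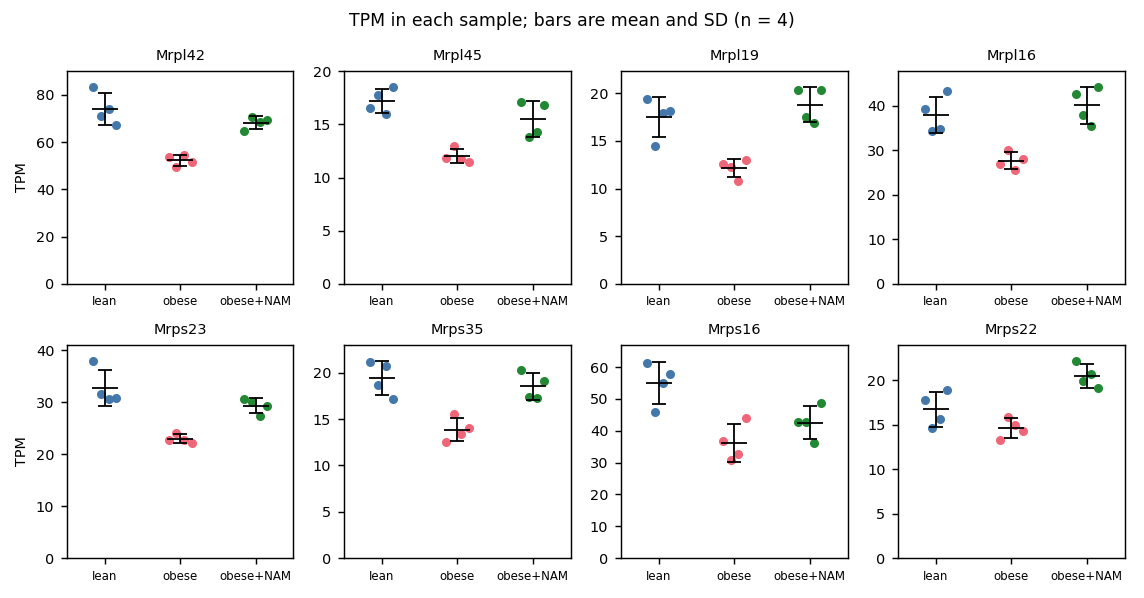
TPM as deposited in each sample for 8 genes; bars are the mean and SD of 4 samples per group. For Mrpl42, Mrpl45, Mrpl19, Mrpl16, Mrps23, Mrps35 and Mrps16 all obese samples lie below all lean samples; for Mrps22 obese and lean overlap while all NAM-treated samples lie above both.

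Around the exit tunnel, where the new chain leaves the ribosome, 3 of 7 genes were called lower in obese hearts. Mrpl45, which holds the tunnel exit against the inner membrane, was at 16.5, 17.8, 16.0 and 18.6 TPM in lean and 11.8, 12.99, 11.7 and 11.5 TPM in obese samples. These groups lay fully apart, and the change was -0.49 ± 0.09 (limma adjusted p = 0.00491). Mrpl17 and Mrpl44 were the other called genes of the exit tunnel. Mrpl44, an RNase III-like protein named in human cardiomyopathy, fell from 13.5 ± 0.738 to 10.9 ± 0.924 TPM (SD, n = 4 each), a change of -0.29 (limma adjusted p = 0.0318). Its call was lost in 5 of 12 fits that each left out 1 sample, with an adjusted p of up to 0.0896.

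Of 5 genes grouped here as the surroundings of the peptidyl transferase centre, where peptide bonds form, 4 were called lower. These were Mrpl3, Mrpl4, Mrpl16 and Mrpl27. The grouping is loose, and Mrpl4 could be counted with the exit tunnel instead. Mrpl16, the counterpart of the bacterial protein that positions the incoming transfer RNA, was at 39.2, 34.4, 34.8 and 43.2 TPM in lean and 26.9, 30.03, 25.6 and 28.0 TPM in obese samples, with no overlap (-0.44 ± 0.10, limma adjusted p = 0.0111). Mrpl3 was at 42.5 ± 3.98 TPM in lean and 32.4 ± 4.02 TPM in obese samples (SD, n = 4 each), a change of -0.38 (limma adjusted p = 0.0232) that lost its call in 3 of the 12 fits.

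Of the central protuberance, the knob of the large subunit that faces the small one, 3 of 5 genes were called lower: Mrpl38, Mrpl40 and Mrpl48. Mrpl38 was at 12.4, 7.66, 11.4 and 10.99 TPM in lean and 6.72, 6.64, 7.34 and 6.28 TPM in obese samples. All obese values lay below the lean ones, with a log2 change of -0.57 ± 0.12 (limma adjusted p = 0.00928). Mrpl40 carried the weakest call of all, -0.26 (limma adjusted p = 0.0498), which was lost in 10 of the 12 fits. Mrpl46 of the same site, chosen after its values were seen, was not called at -0.19 (adjusted p = 0.329).

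Of 4 genes of the stalks of the large subunit, mrpl11 and Mrpl12 were called lower, both of the flexible stalk that recruits translation factors. Mrpl1 of another stalk, which was listed at 0 in some samples, was counted among the 4. Other large subunit genes with firm calls were Mrpl19, which sits where the subunits meet, and Mrpl58, a peptidyl-tRNA hydrolase that frees stalled ribosomes. Mrpl19 was at 19.4, 14.5, 17.9 and 18.2 TPM in lean and 12.6, 12.2, 10.8 and 12.999 TPM in obese samples, and the groups did not overlap (-0.49 ± 0.10, limma adjusted p = 0.00901). Mrpl58 was at 29.3 ± 1.18 TPM in lean and 20.7 ± 2.46 TPM in obese samples (SD, n = 4 each), a change of -0.48 (limma adjusted p = 0.00979).

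In the small subunit, 3 of 8 body genes, 2 of 7 head genes and 3 of 5 genes of the messenger RNA path and decoding site were called lower. Mrps16, named in an inherited defect of mitochondrial translation in humans, was at 61.3, 45.7, 55.0 and 57.7 TPM in lean and 36.7, 30.8, 32.8 and 44.1 TPM in obese samples. The groups lay apart by a narrow margin, and the change was -0.60 ± 0.13 (limma adjusted p = 0.00892). Mrps35 of the head was at 21.1, 18.7, 20.7 and 17.1 TPM in lean and 12.6, 15.6, 13.3 and 13.98 TPM in obese samples, also without overlap (-0.46 ± 0.09, limma adjusted p = 0.00782). At the decoding site, Mrps12, a core decoding protein chosen after its values were seen, had the largest called change of the 29 at -0.63 ± 0.18 (limma adjusted p = 0.0316), but its call was lost in 5 of the 12 fits. Mrps14 of the head (-0.24, adjusted p = 0.169), Mrps22 of the body (-0.18, adjusted p = 0.201) and Mrps2 of the messenger RNA path (-0.20, adjusted p = 0.399) were not called. Mrps14 and Mrps22 are cardiomyopathy genes in humans.

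The genes whose names mislead were called lower as well. Mrps36, the alpha-ketoglutarate dehydrogenase subunit, was at 457, 446, 495 and 478 TPM in lean, 378, 328, 326 and 335 TPM in obese and 508, 365, 436 and 490 TPM in NAM-treated samples. Obese values lay below all lean ones, with a change of -0.46 ± 0.10 (limma adjusted p = 0.00922). Mrps30 and Mrps18a, which sit in the large subunit despite their symbols, changed by -0.37 and -0.47 (limma adjusted p = 0.0216 and 0.0300), and their calls were lost in 3 and 7 of the 12 fits. With both counted as large subunit genes, 20 of 50 were called.

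The count rested on some samples more than others. Without lean sample 1 it was 13 of 78, without obese sample 3 it was 17 and without obese sample 4 it was 18; the other single omissions gave 21 to 31. The calls of Mrpl42, Mrps23, Mrpl45, Mrps35, Mrps16, Mrpl19, Mrps36, Mrpl38, Mrpl58 and Mrpl16 held in all 12 of these fits.

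With NAM, a part of the transcripts was a larger share of the RNA than in untreated obese hearts. On the deposited TPM 30 of 78 (38.5%) were called higher and 0 lower, against 28.8% of all genes called higher and 0.466% lower. All NAM-treated samples lay above all obese samples for 25 of the 78 genes (32.1%), against 28% of all genes. By sign, 71 (91.0%) were higher and 7 (8.97%) lower, against 84.2% and 15.8% of all genes. These 7 were Mrpl33, Mrpl36, Mrpl43, Mrpl54, Mrpl57, Mrps17 and Mrps34. The median log2 change of 0.26 was close to the 0.25 of all genes. This comparison shares its obese samples with the one above, so the changes below are not independent of those. Of the large subunit genes 22 of 48 were called, and of the small subunit genes 8 of 30; the difference between the subunits was not tested.

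After rescaling none of the 78 was called, where 0.2% of all genes were called higher and 0.513% lower. At an unadjusted p under 0.05, 7 (8.97%) were lower and 3 (3.85%) were higher, against 8.42% and 7.27% of all genes. The median was then -0.04 against -0.01 for all genes, so its sign turned with the scale. It was 0.08 against 0.09 for all genes without the mitochondrially encoded genes, and -0.01 against 0.02 with quantile normalization.

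On the deposited TPM, the firmest changes with NAM were again spread over both subunits. Mrpl19 was at 20.3, 17.5, 16.9 and 20.4 TPM in the NAM-treated samples, above all obese values, and rose by 0.59 ± 0.10 on the log2 scale (limma adjusted p = 0.00379). Mrpl40 was at 14.5, 15.1, 12.8 and 13.8 TPM in obese and 20.8, 19.7, 19.3 and 19.3 TPM in NAM-treated samples, with 15.4 to 19.2 TPM in lean. The NAM-treated values as deposited thus lay above those of both other groups, with a rise of 0.47 ± 0.08 over obese (limma adjusted p = 0.00403). After rescaling they overlapped with both groups, and the rise over obese was 0.16 (limma adjusted p = 0.367). Mrpl16 was at 42.7, 37.9, 35.4 and 44.2 TPM in NAM-treated samples and rose by 0.52 ± 0.10 without overlap (limma adjusted p = 0.00432).

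Mrps22 was the small subunit gene with the smallest p in this comparison. It was at 17.8, 14.6, 15.6 and 18.9 TPM in lean, 13.3, 15.9, 14.97 and 14.3 TPM in obese and 22.2, 19.9, 20.7 and 19.1 TPM in NAM-treated samples. All NAM-treated values as deposited lay above all others, with a rise of 0.46 ± 0.09 over obese (limma adjusted p = 0.00575). The change of Mrps22 against lean, 0.28, was not called (limma adjusted p = 0.162). After rescaling its NAM-treated values overlapped with both groups, and the rise over obese was 0.15 (limma adjusted p = 0.381). Mrps30 rose by 0.44 (adjusted p = 0.00755), Mrpl42 by 0.38 (adjusted p = 0.00589), Mrps35 by 0.39 (adjusted p = 0.0106) and Mrps23 by 0.34 (limma adjusted p = 0.0109). These 8 calls held in every fit that left out 1 sample.

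Mrpl39, a protein beside the exit tunnel chosen after its values were seen, set the NAM-treated group apart from both others on the deposited TPM only. It was at 8.97, 8.84, 10.2 and 11.3 TPM in lean, 8.01, 9.78, 7.80 and 12.2 TPM in obese and 16.7, 12.3, 15.3 and 13.5 TPM in NAM-treated samples. Lean and obese overlapped, and every NAM-treated value was above every other. The rise over obese was 0.58 ± 0.14 (limma adjusted p = 0.0106). Rescaled, obese sample 4 at 13.9 TPM lay within the NAM-treated range of 12.1 to 14.3 TPM. The rescaled change over obese was 0.28 and was not called (limma adjusted p = 0.312). The rescaled change against lean was 0.45, which did not pass (adjusted p = 0.0858), and with mitochondrially encoded genes removed it was 0.64 and passed (adjusted p = 0.0324).

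Among the cardiomyopathy genes, Mrpl3 rose by 0.40 and Mrpl44 by 0.38 (limma adjusted p = 0.0133 and 0.00754), while Mrps14 differed by 0.21 (adjusted p = 0.190) and was not called. Mrpl58 rose by 0.42 (limma adjusted p = 0.0126) and Mrps36 by 0.39 (adjusted p = 0.0132). Of the genes called lower in obese hearts, Mrpl38 (0.24, adjusted p = 0.148), Mrps16 (0.24, adjusted p = 0.175), Mrps12 (0.27, adjusted p = 0.283) and Mrps18a (0.17, adjusted p = 0.343) were not called here. Mrpl33, the most abundant gene, was at 1018, 837, 592 and 652 TPM in lean, 515, 808, 634 and 545 TPM in obese and 626, 465, 602 and 548 TPM in NAM-treated samples. All its groups overlapped, and neither its change in obese hearts (-0.30, adjusted p = 0.268) nor that with NAM (-0.14, adjusted p = 0.574) was called.

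Between NAM-treated and lean hearts none of the 78 was called on the deposited TPM, where 0.969% of all genes were called lower and 0.865% higher. At an unadjusted p under 0.05, 15 (19.2%) were lower and 3 (3.85%) higher, against 6.39% and 10.6% of all genes. After rescaling 3 were called lower (3.85%), against 1.59% of all genes, and 0 higher, against 0.77%. The NAM-treated samples then lay below the lean ones for 11 of 78 genes (14.1%), against 6.35% of all genes. The median log2 change was -0.04 as deposited, with all genes at 0.05, -0.10 rescaled, with all genes at 0.00, and -0.06 with quantile normalization, with all genes at 0.03. It turned positive, 0.06, once mitochondrially encoded genes were left out, with all genes at 0.15. In that setting 3 other genes, Mrpl35, Mrpl39 and Mrps22, were called higher and 0 lower. The share of all 13229 genes called there is not given here, and their median was also above 0. These 3 calls are therefore not read as particular to these genes. The calls against lean hearts depended on the scale.

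The 3 genes called lower after rescaling have known roles at different sites. Mrpl12 forms the stalk that recruits translation factors and has also been described as a partner of the mitochondrial RNA polymerase. Its deposited values were 33.8, 27.2, 27.7 and 27.9 TPM in lean, 23.9, 25.2, 22.0 and 20.8 TPM in obese and 23.4, 23.7, 21.0 and 24.0 TPM in NAM-treated samples. Both obese groups lay below the lean one and overlapped with each other. The change of NAM-treated against lean was -0.32 as deposited (adjusted p = 0.106) and -0.38 rescaled (limma adjusted p = 0.0424).

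Mrps7, the counterpart of a bacterial protein that organises the head of the small subunit, was at 30.7, 25.7, 23.3 and 27.3 TPM in lean and 22.5, 20.4, 21.9 and 22.9 TPM in NAM-treated samples. The obese samples, at 18.8 to 23.6 TPM, reached just into the lean range. Its rescaled change against lean was -0.33 ± 0.07 (limma adjusted p = 0.0386). Mrps34, needed in mice for a stable small subunit, was at 9.33, 10.1, 12.6 and 11.2 TPM in lean, 10.2, 6.72, 6.71 and 5.80 TPM in obese and 6.70, 5.20, 7.80 and 6.94 TPM in NAM-treated samples. NAM-treated values lay below all lean values, and 1 obese sample lay within the lean range; the rescaled change against lean was -0.68 ± 0.16 (limma adjusted p = 0.0465).

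All 3 had been called lower in obese hearts on the deposited TPM, and none was called in NAM-treated against obese hearts, where they changed by 0.00, 0.05 and -0.11 as deposited and by -0.31, -0.26 and -0.39 rescaled (limma adjusted p from 0.127 to 0.256). The rescaled calls against lean were close to the threshold: leaving out single samples ended that of Mrpl12 in 9 of 12 fits, that of Mrps7 in 8 and that of Mrps34 in 10, with an adjusted p of up to 0.123, 0.111 and 0.109. The total of 3 became 0 without lean sample 1 or without NAM-treated sample 1, 3 or 4, and 1 without lean sample 2, 3 or 4, obese sample 2 or NAM-treated sample 2.

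**Figure D4:**
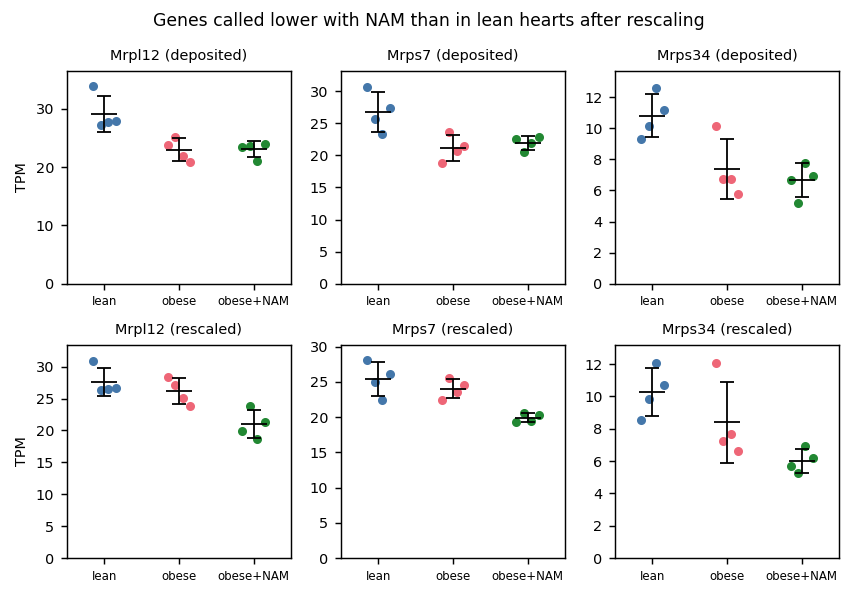
Mrpl12, Mrps7 and Mrps34 in each sample as deposited (top) and rescaled (bottom), in TPM, with the mean and SD of 4 samples. NAM-treated samples lie below all lean samples in each panel; the obese samples overlap with the NAM-treated ones as deposited, and when rescaled they overlap with the lean ones for all 3 genes.

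Summed over genes, the subunits moved side by side. Without Mrpl33, the large subunit genes summed to 1084 ± 70.9 TPM in lean samples, 843 ± 20.2 TPM in obese samples and 1041 ± 70.0 TPM with NAM (SD, n = 4 each). Without Mrps36, the small subunit genes came to 708 ± 45.4, 575 ± 22.4 and 663 ± 47.6 TPM. The highest obese sum, 870 TPM for the large and 605 TPM for the small subunit, was below the lowest lean sum of 1026 and 647 TPM, while the NAM-treated sums overlapped with the lean ones. The ratio of large to small subunit sums was 1.53 ± 0.0832, 1.47 ± 0.0782 and 1.57 ± 0.0398 in lean, obese and NAM-treated samples, with overlap between all groups. As a share of the TPM of nuclear genes alone, the 76 genes made up 0.581% ± 0.00996, 0.569% ± 0.0131 and 0.594% ± 0.0148, and the ranges of the 3 groups overlapped.

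**Figure D5:**
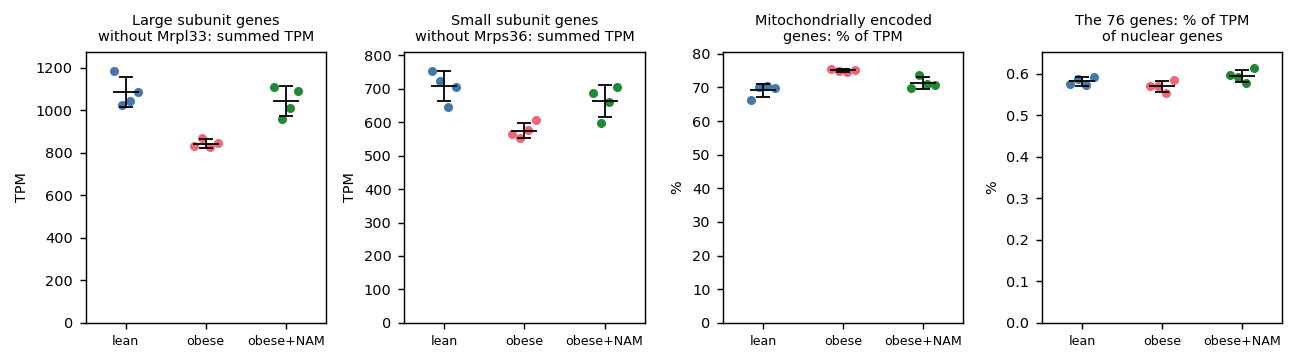
Summed TPM of 47 large subunit genes (without Mrpl33) and 29 small subunit genes (without Mrps36), the share of mitochondrially encoded genes in all TPM, and the share of these 76 genes in the TPM of nuclear genes; points are samples, bars the mean and SD (n = 4). Obese sums lie below all lean sums while the mitochondrial share is highest in obese, and the share of nuclear TPM overlaps between groups.

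Promoters are described here as a property of the genes, and a link between promoter letters and the changes above was not tested. RefSeq promoter sequences (GRCr8 build, 250 bases before to 50 after the gene start) were found by symbol for 62 of the 78 genes, and short motifs were searched on both strands. The ETS core CCGGAAG, bound by GABP among other factors, was present in 20 of 62 promoters (32.3%), against 18.9% of 7674 matched genes among those tested and 8.75% of all 33469 promoters. The YY1 core AAGATGGCG was present in 9 (14.5%), against 4.34% and 1.73%. The core of NRF1, a regulator of nuclear genes for mitochondria, GCATGCGC, was present in 5 (8.07%), against 5.38% and 2.47%. The CCAAT letters, a common promoter element, were present in 26 (41.9%), against 38.1% and 37.5%. ETS and YY1 matches can share the letters AAG, and the NRF1 core overlaps its own reverse complement. A match describes letters in the window and not a bound site.

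The first 4 sequences below belong to genes called lower in obese hearts and hold a match in the 150 bases before the start, and the last 2 belong to genes called lower after rescaling in NAM-treated against lean hearts and hold no ETS, YY1 or NRF1 match there. Of the 21 genes called lower in obese hearts that had a promoter sequence, 6 held such a match in those 150 bases, beside 18 of all 62. Capitals mark the matches, the ETS core (or its reverse complement) in Mrpl58, Mrpl27 and Mrpl48 and the NRF1 core in Mrpl17, which holds it 3 times in overlapping and separate copies.
Mrpl58, chr10:101145192-101145341, plus strand: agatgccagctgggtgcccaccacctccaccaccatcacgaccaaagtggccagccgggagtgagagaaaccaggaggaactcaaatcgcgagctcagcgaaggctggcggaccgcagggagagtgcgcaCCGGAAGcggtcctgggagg
Mrpl27, chr10:80092195-80092344, plus strand: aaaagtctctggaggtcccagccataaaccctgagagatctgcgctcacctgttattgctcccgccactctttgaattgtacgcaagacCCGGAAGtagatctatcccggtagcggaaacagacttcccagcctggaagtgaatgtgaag
Mrpl48, chr1:164351377-164351526, minus strand: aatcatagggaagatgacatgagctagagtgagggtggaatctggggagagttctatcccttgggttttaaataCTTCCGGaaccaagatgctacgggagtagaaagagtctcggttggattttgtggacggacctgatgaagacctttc
Mrpl17, chr1:169575700-169575849, minus strand: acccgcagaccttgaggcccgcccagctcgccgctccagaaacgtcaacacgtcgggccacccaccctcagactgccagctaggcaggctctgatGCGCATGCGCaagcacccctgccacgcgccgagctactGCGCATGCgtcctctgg
Mrpl12, chr10:106256596-106256745, plus strand: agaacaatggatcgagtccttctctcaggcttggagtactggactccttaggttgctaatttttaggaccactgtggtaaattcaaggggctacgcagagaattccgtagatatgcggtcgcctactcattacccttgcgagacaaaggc
Mrps7, chr10:101342492-101342641, plus strand: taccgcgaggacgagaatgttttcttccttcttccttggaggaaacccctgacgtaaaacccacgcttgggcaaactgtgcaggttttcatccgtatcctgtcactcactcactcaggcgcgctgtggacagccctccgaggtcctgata

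Many of the genes share a start region with a neighbour read the other way. In RefSeq, 17 of the 62 (27.4%) had such a start within 1000 bases, against 16.7% of the 7674 matched genes. The neighbours included Ndufb5, a respiratory complex I subunit, for Mrpl47, Ptcd2, a mitochondrial RNA processing protein, for Mrps27, and Fau, a cytosolic ribosomal protein precursor, for Mrpl49. Mrpl46 and Mrps11 are such a pair, so that the 233 bases shown here lie between the starts of 1 gene of each subunit. Whether this stretch drives either gene was not tested. None of the ETS, YY1 and NRF1 letters occurs in this stretch, while the YY1 match counted for Mrpl46 lies in the 50 bases after its start.
Mrpl46 and Mrps11, chr1:142117031-142117263, plus strand: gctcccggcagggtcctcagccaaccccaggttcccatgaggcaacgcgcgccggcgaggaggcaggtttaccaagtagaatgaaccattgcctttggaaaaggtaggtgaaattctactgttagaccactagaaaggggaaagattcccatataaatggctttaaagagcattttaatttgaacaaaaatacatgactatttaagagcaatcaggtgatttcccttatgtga
Mrpl46 was at 9.37 ± 1.34, 8.09 ± 1.21 and 8.82 ± 1.22 TPM and Mrps11 at 7.17 ± 0.531, 5.81 ± 0.378 and 7.13 ± 1.31 TPM in lean, obese and NAM-treated samples (SD, n = 4 each). Neither gene was called in obese against lean hearts (-0.19 and -0.26, adjusted p = 0.329 and 0.127) or with NAM (0.11 and 0.24, adjusted p = 0.538 and 0.125).

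Other genes of mitochondrial translation were counted in 5 lists, to be read against the 16.5% of all genes called lower in obese hearts and the 28.8% called higher with NAM. Of 5 further ribosomal proteins that carry other names, Ptcd3 was called lower in obese hearts (-0.39, limma adjusted p = 0.0170) and higher with NAM (0.39, adjusted p = 0.0113), and the other 4 were not called. Of 15 translation factors and related proteins, 7 (46.7%) were called lower in obese hearts, among them the inner membrane insertase Oxa1l (-0.39), the recycling factor Mrrf (-0.45) and the elongation factor Gfm1 (-0.41). With NAM 7 of the 15 (46.7%) were called higher. Of 17 mitochondrial aminoacyl-tRNA enzymes, which charge the transfer RNAs, 5 (29.4%) were called lower in obese hearts and 8 (47.1%) higher with NAM. Of 24 assembly factors these counts were 4 (16.7%) and 6 (25%), near the shares of all genes. Of 26 factors of mitochondrial DNA and RNA upkeep they were 6 (23.1%) and 14 (53.8%). In the last list Lrpprc, which stabilises mitochondrial messenger RNA, changed by -0.56 in obese hearts (limma adjusted p = 0.00584) and by 0.59 with NAM (adjusted p = 0.00416).

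After rescaling, 1 gene of these 5 lists was called in either comparison. This was Mtfmt, which formylates the initiator transfer RNA and went against the other called translation factors: it was at 3.97 ± 0.136 TPM in lean samples, 4.94 ± 0.282 TPM in obese samples and 6.49 ± 0.417 TPM with NAM (SD, n = 4 each). Its rescaled change was 0.47 in obese against lean hearts (limma adjusted p = 0.0151) and 0.53 in NAM-treated against lean hearts (adjusted p = 0.00519).

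Of the 13 mitochondrially encoded messenger RNAs, which this ribosome translates, 8 were called higher in obese than in lean hearts as deposited, against 0.352% of all genes, with Mt-nd4 of complex I at 0.58 (limma adjusted p = 0.00174) and Mt-co1 of complex IV at 0.32 (adjusted p = 0.00343), and 11 after rescaling, against 0.589% of all genes. The deposited changes of Mt-co2 and Mt-atp8 were negative, -0.12 and -0.17 (adjusted p = 0.231 and 0.127), and neither was called. With NAM, 2 were called higher and 2 lower as deposited, against 28.8% and 0.466% of all genes. After rescaling 0 were called higher and 6 lower, against 0.2% and 0.513% of all genes. The mitochondrial ribosomal RNAs were not analysed here.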

How the data were processed

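Bulk RNA sequencing of cardiac muscle was deposited for 12 ZSF1 rat samples in 3 groups of 4. The deposited values are TPM per gene in all 12 columns, against Rnor_6.0 per the submitters' processing notes, which name limma without a version (aligner and quantifier: not given in the sources used here). RNA was isolated with TRIzol and RNeasy kits and made into strand-specific libraries, per the labels' protocols. In the NAM-treated columns, as deposited by the authors, 498 genes carry a text mark of a failed lookup, so those columns also hold text of another kind; these 498 of 17602 genes were left out. Depth cannot be recovered from TPM, so no counting intervals are given. The labels do not say that the samples of a group are separate animals, so the p-values reflect the spread between samples, which may be technical.

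A gene was kept where 4 or more of the 12 samples reached 1 TPM (10526 genes, all 78 members among them). log2(TPM + 1) was fitted in limma 3.58.1 (R 4.3.3, statmod 1.5.0) with a mean for each of the 3 groups, leaving 9 residual degrees of freedom, and eBayes with trend and robust. Tests were 2-sided, with Benjamini-Hochberg adjustment over all kept genes within a comparison. Unless stated otherwise every adjusted p is limma's. Fold changes on log2(TPM + 1) understate those of low genes. Rescaled values were divided by median-of-ratios factors from 10114 genes. The procedure was tested on simulated data, but the outcome is not given here and no result rests on it. The rest of the settings tried were pseudocounts of 0.1 and 5, no filter, a mean of at least 5 TPM, TPM without mitochondrially encoded genes, quantile normalization, plain eBayes, arrayWeights, fits to 8 samples, a replicate block and each sample left out.

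Named genes are, for obese against lean and NAM-treated against obese, the 4 genes per subunit with the smallest p, all genes called after rescaling, the 2 highest and 2 lowest per subunit, and a fixed list of names; others are marked where they appear. The genes, lists and comparisons were chosen with earlier results of these data known, so no list is independent evidence. Promoters came from RefSeq's GRCr8 table, a newer build than that of the expression table, and were matched by symbol only.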

Additional observations from a re-analysis of the deposited data

Results flagged for a closer look

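Within single groups, 10 of 111 tested sets of 4 values had 1 sample far from the other 3, and over all 78 genes 16 of 234 did; chance gives about 1 in 20. In the lean group, sample 1 was high for Mrps23 (38.0 TPM, others 30.7 to 31.7) and Mrpl12 (33.8 TPM, others 27.2 to 27.9), and sample 2 was high for Mrps17 (48.2 TPM, others 21.7 to 23.8) and Mrps21l (19.4 TPM, others at 0). In the obese group, sample 1 was high for Mrps36 (378 TPM, others 326 to 335) and sample 2 for Mrps2 (9.96 TPM, others 4.81 to 5.66). Obese sample 3 was high for Mrpl36 (4.42 TPM), Mrpl53 (7.09 TPM) and Mrps21l (3.78 TPM), whose other obese values were under 1 TPM. In the NAM-treated group, sample 2 was low for Mrpl58 (23.0 TPM, others 29.7 to 30.05).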

How the results depend on the processing

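The calls on deposited TPM depended on the scale. Against 29 genes called between obese and lean hearts and 30 between NAM-treated and obese hearts, median-of-ratios rescaling, TPM without mitochondrially encoded genes and quantile normalization each gave 0 and 0. Of the named genes called in a comparison, 1 turned its sign there under an alternative: Mrpl40 in obese against lean hearts went from -0.26 to 0.027 (limma adjusted p = 0.931) without mitochondrially encoded genes. Uncalled genes turned more often: on rescaling, genes with a positive change in obese hearts went from 1 to 22 of 78. Over all genes this share went from 17.6% to 50.7%. Single omissions gave 13 to 31, 21 to 35 and 0 to 1 calls as deposited for obese/lean, NAM/obese and NAM/lean, and 0 to 3 for NAM/lean rescaled. For NAM-treated against lean hearts as deposited, 0 became 1 with a mean of at least 5 TPM or with arrayWeights, 3 lower after rescaling and 3 higher without mitochondrially encoded genes. For the same groups rescaled, 3 became 0 without the filter, 5 with a mean of at least 5 TPM (4 lower, 1 higher), 0 with plain eBayes and 1 in the fit to 8 samples. The first and second comparisons stayed at 0 when rescaled under all other alternatives run. The cause of these changes was not tested. Unknown depth limits the genes under a few TPM most.

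Replicate numbers gave no sign of pairing. Deviations from group means correlated by -0.049 to 0.072 between samples of the same number and by -0.087 to 0.079 between other numbers. Of 12 samples, 4 correlated best with their own number. Such a check cannot exclude pairing. With the replicate block, 25, 28 and 0 genes were called as deposited and 0, 0 and 0 rescaled, the last against 3 without it.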
